A study of Mus musculus with 4 samples.

Results

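A set of 8 enzyme genes that serve uses of tyrosine other than melanin was followed in 2 mouse melanocyte lines: Gch1, Pts, Spr, Qdpr, Pcbd1, Ddc, Maoa and Fah. They were taken by name, as every probe set annotated to exactly 1 of these 8 symbols, which gave 13 probe sets among 34945 with a single symbol, and 8 genes among 18193. The non-pigmented line carries a homozygous point mutation in the tyrosinase gene, and the pigmented line is wild type at that gene because the mutation had been corrected. Both lines have a Balb/c background, came from skin and were cultured with tetradecanoyl phorbol acetate, a phorbol ester that activates protein kinase C and keeps mouse melanocytes dividing. Total RNA was hybridised to 4 arrays, 2 non-pigmented and 2 pigmented. Whether either line is a single clone, and whether the arrays of a line came from separate cultures, is not given in the sources used here, so the spread behind each p-value is that between these arrays and could be a technical one.

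Tyrosine is the starting material of melanin, of catecholamines and of a breakdown route that ends in fumarate and acetoacetate. Tetrahydrobiopterin, BH4, is the cofactor that phenylalanine, tyrosine and tryptophan hydroxylases use up. GTP cyclohydrolase (Gch1), pyruvoyl tetrahydropterin synthase (Pts) and sepiapterin reductase (Spr) make it in sequence, while pterin carbinolamine dehydratase (Pcbd1) and dihydropteridine reductase (Qdpr) recycle it. Dopa decarboxylase (Ddc) turns dopa into dopamine, monoamine oxidase A (Maoa) oxidises amines such as dopamine, noradrenaline and serotonin, and fumarylacetoacetate hydrolase (Fah) performs the last step of tyrosine breakdown.

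The values are array signals on a linear scale. Every column had been scaled to the same trimmed mean of 500, and the median signal lay between 99.7 and 111 on the non-pigmented arrays and between 126 and 130 on the pigmented ones. Replicate 2 of either line had a high 3′ to 5′ ratio of the Gapdh control (20.2 non-pigmented, 16.8 pigmented) and replicate 1 a low one (0.903 and 0.864), so the arrays form 2 RNA integrity pairs as well as the 2 pairs by the date in their titles. Non-pigmented replicate 1 and pigmented replicate 2 share the first date, and non-pigmented replicate 2 and pigmented replicate 1 the second. Each difference within a date therefore sets an array with a low ratio against an array with a high one. Tyr itself, the mutated gene, had signals of 214 and 67.2 in the non-pigmented line, against 17306 and 11698 in the pigmented line, a log2 difference of -6.69 ± 0.60 (standard error) with an adjusted p of 0.00618 by limma. These values are of its brightest probe set. The other Tyr probe sets differed by -7.21 and -4.01, with adjusted p-values of 0.0115 and 0.0603 in a limma fit across probe sets. A point mutation need not alter an RNA level, so Tyr checks the labels only in part. Of 9 melanocyte markers tested, limma called 6 lower in the non-pigmented line and 0 higher at an adjusted p under 0.05. Over all tested genes 1.33% were called lower and 2.03% higher. All 9 were lower on both non-pigmented arrays than on either pigmented one, as were 24.4% of all tested genes. Their summed signal was 15507 to 26712 in the non-pigmented line, against 120454 to 130798 in the pigmented line. Sox10, which marks the melanocyte and Schwann lineages, was bright on all 4 arrays, with signals from 8268 to 10232. Of 4 Schwann cell markers tested, limma called 3 higher in the non-pigmented line and 0 lower, beside the same shares of all tested genes. These were S100b, Mbp and Sox2, while Cdh19 differed by 0.59 and was not called. The summed signal of the 4 was 19983 to 22376 in the non-pigmented line, against 2132 to 3112 in the pigmented line. Sox2 had 388 and 497 in the non-pigmented line, against 45.2 and 2.65 in the pigmented line. Those pigmented signals lay under 70.7, the signal used below as the filter on dim genes. Of the other marker lists, limma called 1 of 3 tested keratinocyte genes, 0 of 4 fibroblast, 0 of 1 mast or serotonin cell and 0 of 3 macrophage genes. At an unadjusted limma p below 0.05 there were 1, 1, 0 and 0. The called gene was Krt10, higher in the non-pigmented line (306 and 264, against 8.84 and 39.4 in the pigmented line). Both pigmented signals lay under the filter signal of 70.7, so Krt10 entered the test through the non-pigmented arrays. The keratinocyte genes Krt5 and Dsp had negative differences, of -0.96 and -0.63 log2 units. The summed signal of the fibroblast markers was 722 to 887 in the non-pigmented line, against 1445 to 1589 in the pigmented line. Among them Col1a2, a fibrillar collagen gene named after its values were seen, had 200 and 348 in the non-pigmented line, against 1222 and 1176 in the pigmented line. Its log2 difference was -2.11 ± 0.46, with a limma adjusted p of 0.0766, and of 0.0308 with the integrity pair blocked. Col1a2 supplied most of the pigmented sum. Of the 4 tested fibroblast markers, 2 had a negative and 2 a positive difference. The positive ones were the other collagen genes, Col3a1 (1.61) and Col1a1 (0.41). Col3a1 had signals of 102 and 231 in the non-pigmented line, against 85.1 and 14.7 in the pigmented line. The sums of the other 3 lists lay between 143 and 930 in the non-pigmented line and between 270 and 993 in the pigmented line. The part of these marker levels in the results below was not tested.

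Of the 8 enzyme genes, Fah alone passed the test between the lines in the fit over genes without a block. Fah was about 6 times lower in the non-pigmented cells. It did not pass with the date blocked (limma adjusted p of 0.0849) or in the limma fit across probe sets (adjusted p of 0.0521). Gch1, Maoa and Pts were lower on both non-pigmented arrays than on either pigmented one, as were 24.4% of all tested genes, and did not pass. Spr and Qdpr, which stand later in BH4 synthesis and recycling, overlapped between the lines in the probe set tested per gene, and Pcbd1 was too dim to be tested.

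**Figure D1:**
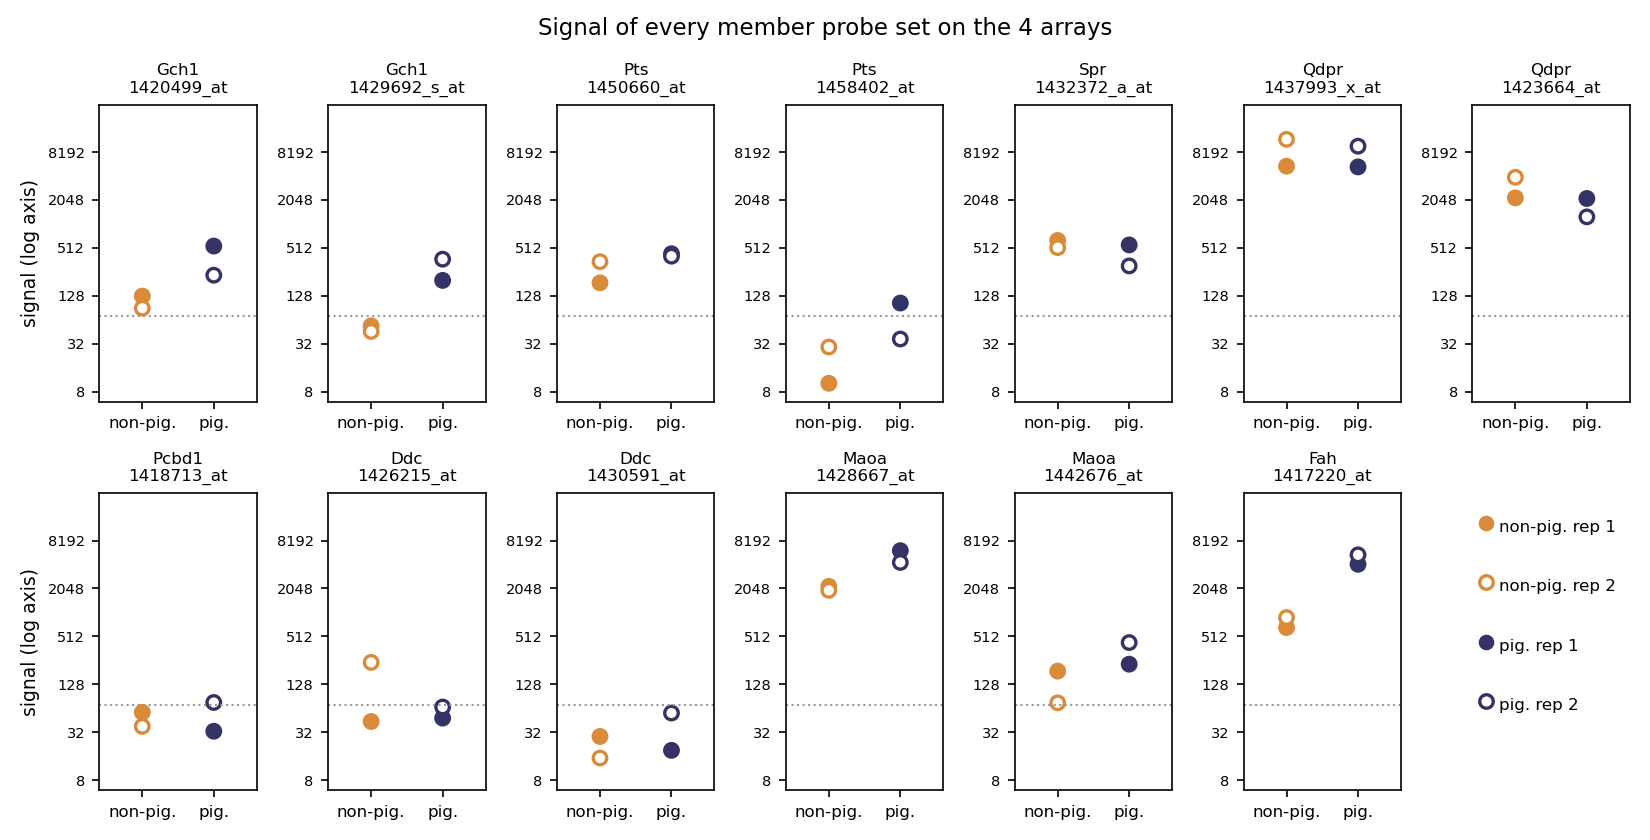
Signal of the 13 probe sets of the 8 genes on each array, on a log2 axis, non-pigmented arrays left and pigmented arrays right in each panel; filled points are replicate 1, open points replicate 2, and the dotted line is the signal of 70.7 used as the filter on dim probe sets. Fah lies at 660 and 882 in the non-pigmented line and at 4118 and 5412 in the pigmented line, while the 2 Qdpr probe sets lie at 1256 or above on every array.

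Differences between the lines were computed on log2(signal + 16), non-pigmented minus pigmented, with the brightest probe set of each gene. Genes under the 40th percentile of mean log2 value were left out, so 12558 genes were tested. An adjusted p under 0.05 counted as a call. Among these, 422 genes (3.36%) were called. Of the 8 enzyme genes 7 passed the filter, and 1 of these 7 was called. Genes called lower in the non-pigmented line made up 1.33% of all tested genes. The median difference of the 7 was -0.68, beside -0.07 over all tested genes. These arrays hold RNA of whole cultures, so fewer cells of a type and less RNA per cell cannot be told apart. With 2 arrays against 2, an exact permutation test of a single gene cannot give a two-sided p under 0.333.

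Fah (Entrez gene 14085) had signals of 660 and 882 in the non-pigmented line, against 4118 and 5412 in the pigmented line. The groups were far apart and the arrays of a line close together. The mean log2 value was 9.61 ± 0.29 in the non-pigmented and 12.21 ± 0.28 in the pigmented line (SD, n = 2 each). The log2 difference was -2.60 ± 0.42 (standard error), or 6.08-fold lower in the non-pigmented line, with a 95% interval from -3.62 to -1.58 and an adjusted p of 0.0304 by limma. By p it stood at rank 295 and by size of difference at rank 503 of the 12558 genes. Within the 2 RNA integrity pairs the difference was almost equal, -2.61 for replicate 1 of both lines and -2.60 for replicate 2. Within the 2 title dates it was -3.00 and -2.20. The call depends on the fit. In the fit that blocks on the title date, which called 3.12% of all genes, the adjusted p by limma was 0.0849. In the fit that blocks on the integrity pair, which called 7.04%, it was 0.00869. When every probe set was tested as a feature of its own, over 22341 probe sets of which 1.73% were called, the adjusted p of the Fah probe set was 0.0521 by limma. In that fit 4 of the 10 tested probe sets of these genes had an unadjusted p under 0.05, beside 11.8% of all tested probe sets, and 0 were called. The 4 include both Gch1 probe sets, which are not independent, and otherwise cover only Fah and Maoa. The dimmer Gch1 probe set passed the filter through its pigmented signals (200 and 369), since its non-pigmented ones (53.8 and 45.7) lay under 70.7. Without non-pigmented replicate 1 the limma adjusted p of Fah was 0.153, without non-pigmented replicate 2 it was 0.0989, and without pigmented replicate 2 it was 0.0567.

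Over the 4 arrays, the genes whose centred log2 values lay closest to those of Fah were Cdc14b, a protein phosphatase, Tesk2, a protein kinase, and F2r, the thrombin receptor. Their Euclidean distances from Fah were 0.13, 0.15 and 0.16 on the log2 scale. Their log2 differences were -2.58 for Cdc14b, -2.46 for Tesk2 and -2.47 for F2r, with limma adjusted p-values of 0.0397, 0.0399 and 0.0367. Blocking on the date, their limma adjusted p-values were 0.0916, 0.0757 and 0.105. These genes were picked by their likeness to Fah, so differences and p-values near its own follow from the choice and test nothing further. Tesk2 had signals of 59.7 and 80.9 in the non-pigmented line, near the filter signal of 70.7, against 396 and 521 in the pigmented line. The likeness covers 4 values per gene and says no more than that.

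Fah lies on mouse chromosome 7 at 84585159 to 84605942, and Tyr at 87424771 to 87493512 (GRCm38.p6), with 2.82 Mb between them. The closeness is known from classical mouse genetics, since some deletions around the albino locus also remove Fah and are lethal to newborn mice. The RefSeq table places 81 genes from Fah to Tyr, mostly vomeronasal and olfactory receptor genes and their pseudogenes. Of the 81, 37 are protein-coding and 6 had a single-symbol probe set. Between Fah and Tyr, 2 genes were bright enough to be tested. Of these, limma called 0, and 0 had an unadjusted p below 0.05. Zfand6, the neighbour of Fah, had signals of 4599 and 7321 in the non-pigmented line and of 4903 and 6026 in the pigmented line, a log2 difference of 0.09 ± 0.39 with a 95% interval from -0.84 to 1.03. The noncoding 2610206C17Rik differed by -0.03 ± 0.55, and its sign turned with median centring (0.22) and with quantile normalization (0.15). Fah and Tyr were thus called lower in the non-pigmented line with a bright neighbour of Fah that was not called.

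The promoters of Fah, Gch1 and Maoa are shown because these genes had the smallest p among the 8, with that of Tyr for comparison. Each covers 250 bases before and 50 after the RefSeq start (GRCm38.p6), read 5′ to 3′ on the gene's strand. Capitals mark the letters CATGTG (an E-box form that Mitf binds), CCAAT and GGGCGG (the GC box), each on either strand. Fah is chr7:84605893-84606192 on the minus strand, Gch1 chr14:47189364-47189663 minus, Maoa chrX:16619448-16619747 plus and Tyr chr7:87493463-87493762 minus.
Fah: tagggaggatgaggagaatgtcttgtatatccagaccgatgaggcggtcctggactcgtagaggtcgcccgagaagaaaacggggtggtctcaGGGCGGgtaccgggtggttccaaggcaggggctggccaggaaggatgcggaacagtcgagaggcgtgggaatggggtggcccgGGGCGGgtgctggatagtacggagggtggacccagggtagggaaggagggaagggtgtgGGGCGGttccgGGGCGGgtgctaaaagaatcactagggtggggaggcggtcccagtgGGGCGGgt
Gch1: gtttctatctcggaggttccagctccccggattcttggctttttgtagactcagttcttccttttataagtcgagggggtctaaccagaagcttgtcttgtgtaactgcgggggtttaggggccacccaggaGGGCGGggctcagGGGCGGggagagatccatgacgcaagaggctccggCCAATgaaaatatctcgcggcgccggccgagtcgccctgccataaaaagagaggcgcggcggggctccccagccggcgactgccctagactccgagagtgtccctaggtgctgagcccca
Maoa: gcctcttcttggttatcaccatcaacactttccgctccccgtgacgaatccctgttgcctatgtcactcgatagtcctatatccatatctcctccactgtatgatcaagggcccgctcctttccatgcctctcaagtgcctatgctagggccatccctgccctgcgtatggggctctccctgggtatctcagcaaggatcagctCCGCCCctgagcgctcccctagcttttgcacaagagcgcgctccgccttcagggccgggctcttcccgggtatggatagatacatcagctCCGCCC
Tyr: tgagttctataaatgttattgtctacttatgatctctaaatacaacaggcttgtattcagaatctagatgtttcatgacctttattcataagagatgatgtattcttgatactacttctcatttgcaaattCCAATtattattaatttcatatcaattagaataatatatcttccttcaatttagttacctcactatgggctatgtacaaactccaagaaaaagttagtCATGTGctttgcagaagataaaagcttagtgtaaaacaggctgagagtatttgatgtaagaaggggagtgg

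The Fah window held 5 matches to GGGCGG or its reverse complement, the Gch1 and Maoa windows 2 each and the Tyr window 0. At least 1 such match stood in 7 of the 8 enzyme genes, all but Ddc, and in 35.7% of the 32851 promoter windows of the table. CATGTG stood once in the Tyr window and in 0 of the 9 windows of the 8 enzyme genes (Ddc has 2), against 14.2% of all windows. CCAAT was present in 3 of the 8 genes and 37.4% of all windows. A further 4 motifs were searched on both strands. CACGTG was in 0 of the 8 genes (7.15% of all windows), TGACGTCA in 0 (1.79%), TATAAA in 3 (13.6%) and CANNTG, which also covers CATGTG and CACGTG, in 2 (72.3%). The windows of Fah, Gch1 and Maoa had GC contents of 64.3%, 60.3% and 57.7%, beside 31.0% in Tyr and a median of 52.7% over all windows. Such matches describe letters in these windows and nothing about the binding of a factor.

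Gch1 catalyses the first and usually limiting step of BH4 synthesis. Its brighter probe set had signals of 127 and 89.6 in the non-pigmented line, against 540 and 232 in the pigmented line. Its other probe set had 53.8 and 45.7 in the non-pigmented line, against 200 and 369 in the pigmented line. In both probe sets the non-pigmented arrays lay below the pigmented ones, but the pigmented replicates differed by more than the non-pigmented ones, and in opposite order. The log2 difference of the brighter probe set was -1.60 ± 0.54, with a 95% interval from -2.90 to -0.29, an unadjusted p of 0.0240 and an adjusted p of 0.247 by limma. The other probe set differed by -2.14 ± 0.52, with an adjusted p of 0.159 in the limma fit across probe sets. Both of its non-pigmented signals lay under the filter signal, so that size depends on the pseudocount, with -1.57 at 64 and -2.43 at 1. Within the dates the brighter probe set differed by -0.80 and -2.40, and within the integrity pairs by -1.96 and -1.24. Gch1 did not pass limma in any of the alternative fits, where its adjusted p ran from 0.0606 to 0.672.

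Pts, the enzyme after Gch1, had signals of 186 and 344 in the non-pigmented line, against 432 and 403 in the pigmented line. The groups did not overlap, but the gap was smaller than the distance between the 2 non-pigmented arrays. Its log2 difference was -0.68 ± 0.47, with a 95% interval from -1.81 to 0.45 and an adjusted p of 0.618 by limma. A dimmer probe set of Pts, under the filter, had 10.2 and 29.1 in the non-pigmented line, against 104 and 36.7 in the pigmented line. Spr, which completes BH4, had 635 and 516 in the non-pigmented line, against 558 and 304 in the pigmented line. The groups overlapped, with pigmented replicate 1 between the non-pigmented arrays, and the log2 difference was 0.46 ± 0.47 (95% interval from -0.69 to 1.61, limma adjusted p of 0.770).

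The 2 recycling enzymes differed in brightness, which cannot be compared between probe sets, and in how well they were measured. Qdpr, which regenerates BH4 from its quinonoid form, had signals of 5439 and 11820 in the non-pigmented line and of 5326 and 9692 in the pigmented line by the brighter of its 2 probe sets. Replicate 2 was the higher array in both lines, by 1.12 log2 units in the non-pigmented and 0.86 in the pigmented line, and the lines overlapped. The log2 difference between the lines was 0.16 ± 0.50, with a 95% interval from -1.06 to 1.38 and an adjusted p of 0.933 by limma. This probe set carries the _x_at suffix, which Affymetrix gives to probe sets whose probes may also match other sequences. The other probe set of Qdpr had 2177 and 3944 in the non-pigmented line, against 2137 and 1256 in the pigmented line. Here the non-pigmented arrays lay above the pigmented ones, by a margin that is small beside the spread within either line. Its log2 difference was 0.83 ± 0.51 (95% interval from -0.42 to 2.08, adjusted p of 0.629 in the limma fit across probe sets). The sign of the brighter probe set turned when non-pigmented replicate 2 (-0.40) or pigmented replicate 1 (-0.27) was left out. Pcbd1, which also serves as a dimerisation cofactor of the HNF1 transcription factors, had 57.0 and 37.9 in the non-pigmented line and 33.0 and 75.7 in the pigmented line. Its mean lay under the filter, so it was not tested, and its groups overlapped.

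**Figure D2:**
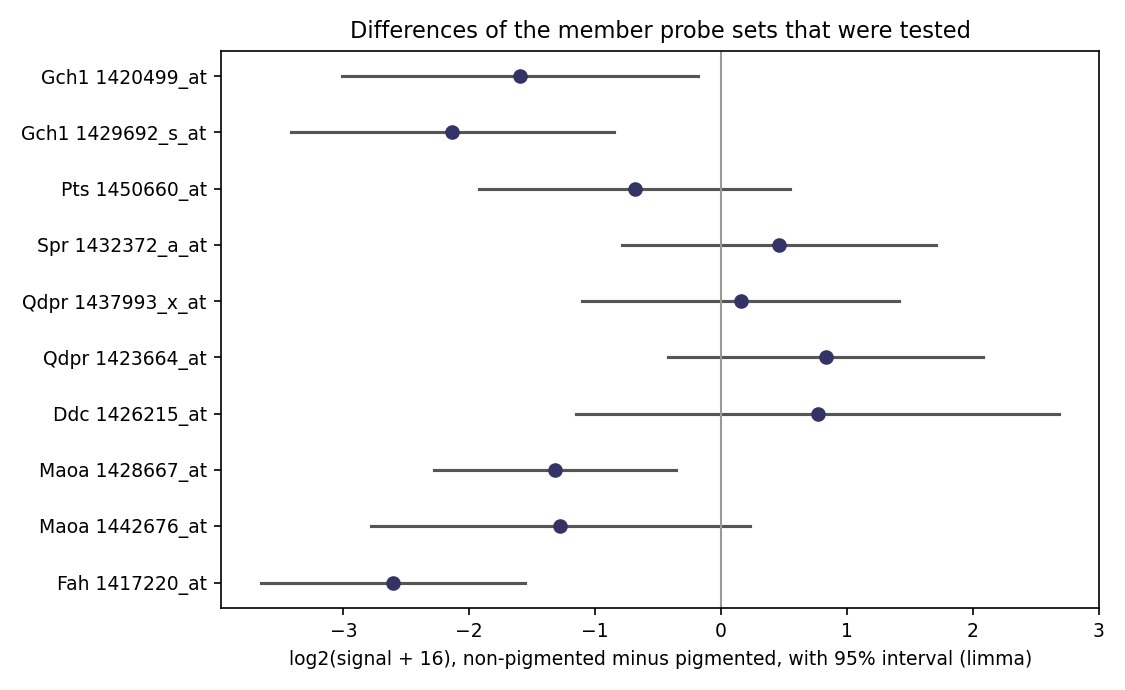
Log2 differences, non-pigmented minus pigmented, of the 10 probe sets of these genes that passed the filter, with 95% intervals from the limma fit across 22341 probe sets. The Fah interval runs from -3.65 to -1.55, and those of Pts, Spr, both Qdpr probe sets, Ddc and the second Maoa probe set (from -2.78 to 0.23) include 0.

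Ddc, which would make dopamine from dopa, had signals of 43.7 and 241 in the non-pigmented line, against 48.2 and 66.5 in the pigmented line. A single array, non-pigmented replicate 2, stood above the others, and the remaining 3 lay under the filter signal of 70.7. The log2 difference was 0.77 ± 0.75, with a 95% interval from -1.04 to 2.58 and an adjusted p of 0.750 by limma, and it was -0.28 without non-pigmented replicate 2. The other Ddc probe set was dimmer, with 28.3 and 15.2 in the non-pigmented line and 19.0 and 55.8 in the pigmented line, and non-pigmented replicate 2 was its lowest array.

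Maoa, which lies on the X chromosome (16619698 to 16687812), had signals of 2177 and 1939 in the non-pigmented line, against 6107 and 4346 in the pigmented line. Both non-pigmented arrays were below both pigmented ones. The mean log2 value was 11.02 ± 0.12 in the non-pigmented and 12.34 ± 0.35 in the pigmented line (SD, n = 2 each). The log2 difference was -1.32 ± 0.39, or 2.50-fold lower in the non-pigmented line, with a 95% interval from -2.26 to -0.37, an unadjusted p of 0.0139 and an adjusted p of 0.182 by limma. A second, dimmer probe set of Maoa had 188 and 75.0 in the non-pigmented line, against 229 and 428 in the pigmented line. Its difference was -1.28 ± 0.61, with an interval that includes 0. Within the dates the brighter probe set differed by -0.99 and -1.65, and within the integrity pairs by -1.48 and -1.16. Maoa passed in the fit that blocks on the integrity pair, with an adjusted p of 0.0425 by limma. Blocking on the date, its limma adjusted p was 0.566.

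**Figure D3:**
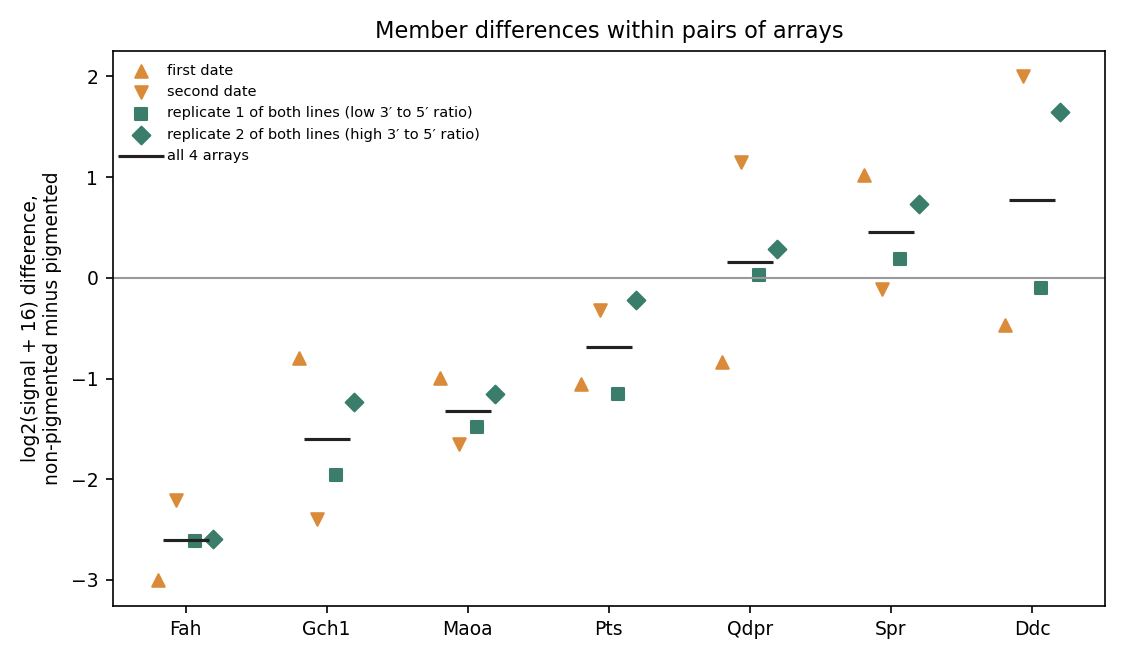
Log2 differences, non-pigmented minus pigmented, of the 7 tested genes within each title date (triangles) and within each RNA integrity pair (squares and diamonds), with the difference over all 4 arrays as a bar. Fah, Gch1, Maoa and Pts are below 0 in every pair, whereas Qdpr, Spr and Ddc take both signs.

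In 4 of the 7 tested genes, Fah, Gch1, Maoa and Pts, both non-pigmented arrays lay below both pigmented ones. Over all tested genes 24.4% had groups apart in this direction. Such genes have a negative difference in every pair of arrays by construction. In 3 of the 7, Fah, Gch1 and Maoa, the unadjusted p was under 0.05, beside 13.8% of all tested genes. By the brightest probe set, none of the 7 had non-pigmented arrays above both pigmented ones, which held for 19.5% of all tested genes. The other probe set of Qdpr did, with 2177 and 3944 in the non-pigmented line against 2137 and 1256 in the pigmented line.

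The other genes of these routes were taken as lists. Of 8 further genes of BH4 synthesis and recycling, 3 were tested, 1 was called higher in the non-pigmented line and 0 lower, beside 2.03% of all tested genes called higher and 1.33% called lower. The one that rose was Cbr2, a carbonyl reductase, listed because carbonyl reductases can reduce pterin intermediates beside Spr. Whether Cbr2 does so was not tested, and the listed Cbr1 and Cbr3 were under the filter. The signals of Cbr2 were 2822 and 748 in the non-pigmented line, against 42.6 and 12.5 in the pigmented line. The pigmented arrays lay under the filter signal, so the size depends on the pseudocount. The log2 difference was 5.17 ± 0.73, with an adjusted p of 0.0203 by limma, and it was 4.08 with a pseudocount of 64 and 5.91 with 1. Gchfr, the feedback regulator of the Gch1 protein, had 91.8 and 51.8 in the non-pigmented line, against 205 and 198 in the pigmented line. Its difference of -1.35 ± 0.46 did not pass (limma adjusted p of 0.257). Pcbd2, the paralogue of Pcbd1, had 436 and 804 in the non-pigmented line, against 1070 and 1689 in the pigmented line, with a difference of -1.16 ± 0.51 and an adjusted p of 0.398 by limma.

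Of 8 oxygenases that depend on BH4, 3 were tested, and limma called 0 and found 0 with an unadjusted p below 0.05. Th, the tyrosine hydroxylase of catecholamine cells, was dim, with 91.7 and 110 in the non-pigmented line and 151 and 129 in the pigmented line (difference -0.42 ± 0.43). The nitric oxide synthases Nos1 and Nos3 differed by -0.26 and 0.22. Of 8 markers of catecholamine cells, 4 were tested, Th, Dbh, Pnmt and Phox2a, and limma called 0 and found 0 with an unadjusted p below 0.05. The summed signal of the 7 with a probe set was 550 to 797 in the non-pigmented and 636 to 708 in the pigmented line.

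Of 15 genes of catecholamine synthesis, storage, uptake and breakdown, 8 were tested and limma called 0 and found 0 with an unadjusted p below 0.05. The median difference was 0.20. Sult1a1, a sulfotransferase for phenols and amines, had 43.2 and 1377 in the non-pigmented line, against 16.2 and 33.8 in the pigmented line, so that 1 array carried its difference of 2.84 ± 1.37 (0.56 without non-pigmented replicate 2, and 5.12 with a limma adjusted p of 0.0104 without non-pigmented replicate 1). Slc18a1, a vesicular amine transporter, had a difference of 0.60 ± 0.41, and Aldh2, a mitochondrial aldehyde dehydrogenase, one of 0.57 ± 0.49. With the mean of all probe sets of the gene, these differences were 0.016 for Slc18a1 and 0.32 for Aldh2. The sign of Aldh2 in its brightest probe set turned without non-pigmented replicate 2 (-0.066).

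Of 10 further genes listed with tyrosine breakdown, 7 were tested and limma called 0 and found 0 with an unadjusted p below 0.05. The tested genes include Il4i1, Fahd1, Fahd2a and Mif, which are not steps of the route that Fah completes. The median difference of the 7 was -0.26 and describes this list, not the route alone. Got1, a cytosolic transaminase, had 1094 and 198 in the non-pigmented line, against 2253 and 551 in the pigmented line. In both lines the array with the high 3′ to 5′ control ratio was the lower one, and the difference of -1.22 ± 0.97 had an adjusted p of 0.687 by limma. Il4i1, an amino acid oxidase, differed by -0.73 ± 0.58 and Fahd2a, of the same protein family as Fah, by -0.50 ± 0.51. Tat, Hpd and Hgd, which carry out upstream steps of the route that Fah completes, were under the filter. Their brightest probe sets had 9.41 and 9.78 (Tat), 142 and 38.6 (Hpd) and 41.3 and 25.6 (Hgd) in the non-pigmented line. In the pigmented line they had 69.2 and 30.6 (Tat), 85.0 and 46.3 (Hpd) and 47.3 and 38.9 (Hgd). Gstz1, the enzyme just before Fah, had 373 and 225 in the non-pigmented line and 346 and 213 in the pigmented line, a difference of 0.09 ± 0.48. Fah was thus called lower in the non-pigmented line, while Gstz1 overlapped and the 3 enzymes before it were too dim to be tested. Of 6 hepatocyte markers, 2 were tested and limma called 0 and found 0 with an unadjusted p below 0.05, and the summed signal of the 5 with a probe set was 200 to 441 in the non-pigmented and 332 to 395 in the pigmented line.

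Of 7 transporters of aromatic amino acids, 4 were tested and limma called 0 and found 2 with an unadjusted p below 0.05, beside 13.8% of all tested genes. These were the light and heavy chain of the large neutral amino acid exchanger. Slc7a5, the light chain, had 4131 and 2695 in the non-pigmented line, against 7037 and 8960 in the pigmented line. Its log2 difference was -1.25 ± 0.39, with an adjusted p of 0.208 by limma. Slc3a2, the heavy chain, had 5836 and 5161 in the non-pigmented line, against 10086 and 12247 in the pigmented line. Its log2 difference was -1.02 ± 0.32, with an adjusted p of 0.209 by limma. Both chains were lower on both non-pigmented arrays, by amounts that did not pass the test over all genes. Slc16a10, an aromatic amino acid carrier, differed by -0.80 ± 0.48 and did not pass either.

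**Figure D4:**
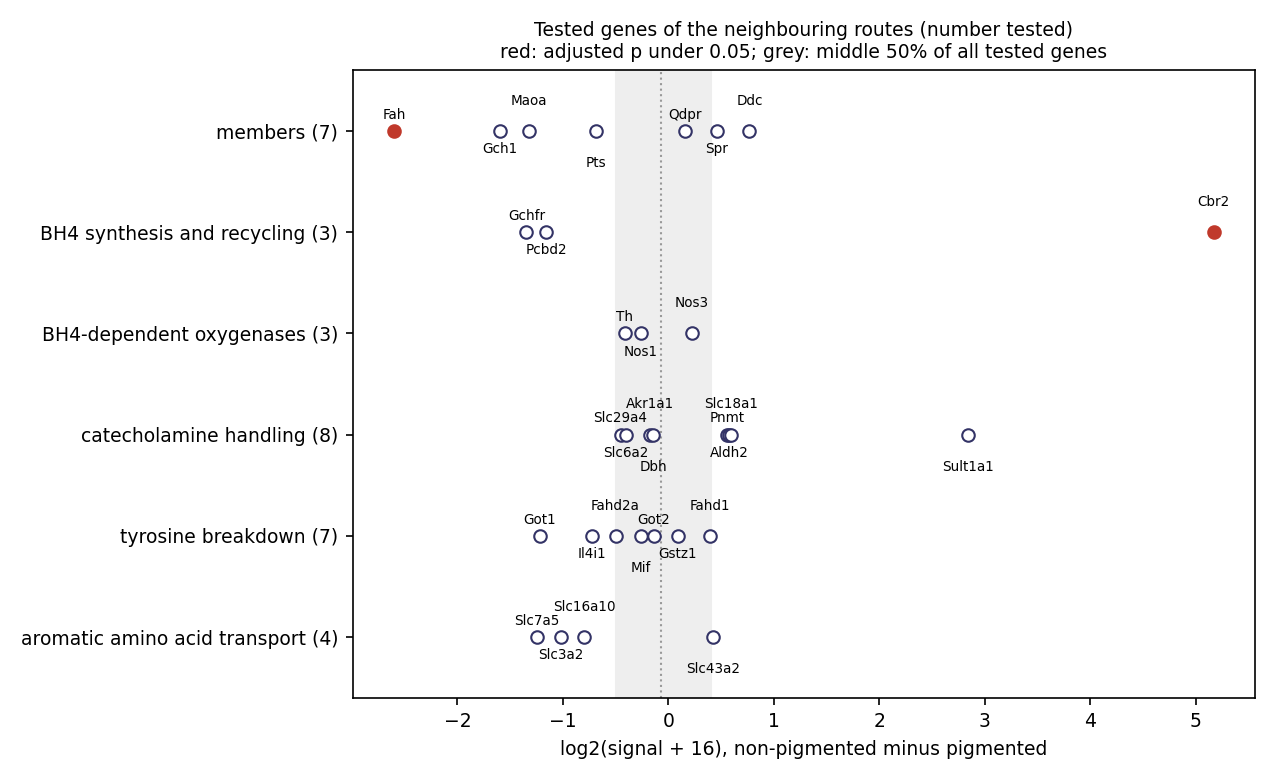
Log2 differences, non-pigmented minus pigmented, of the tested genes of each list (number tested in brackets); red points passed limma at an adjusted p under 0.05, and the grey band is the middle 50% of all 12558 tested genes around their median of -0.07. Fah at -2.60 and Cbr2 at 5.17 are the 2 genes that passed.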

How the data were processed

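The authors deposited probe set intensity values on a linear scale, made with Affymetrix Expression Console per the submitters' processing notes. The sources used here give neither its version nor the summary algorithm or background step. Trimmed by 2% at either end, every deposited intensity column had a mean of 500. Of 45101 probe sets, 64 controls were left out. Probe sets were named from the platform annotation, which gave 1 symbol for 34945, several for 932 and none for 9160. No probe set with several symbols named any of the 8 enzyme genes.

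Each gene was represented by its brightest single-symbol probe set. Genes with a mean log2 value under the 40th percentile (6.44, a signal of 70.7) were left out, since no detection column was used here. Differences of log2(signal + 16), non-pigmented minus pigmented, were fitted in R 4.3.3 by limma 3.58.1 (lmFit, eBayes with trend, Benjamini-Hochberg over all genes), and likewise over probe sets. They understate changes of dim genes. The number of arrays, 2 per line, limits the precision. Replicates are numbered in accession order. Over genes, arrays that share a date deviated from their line means with a correlation of -0.51, and those of the integrity pairs (a Gapdh ratio over or under 3) at 0.51; with 2 arrays per line one is the other with its sign turned. The title dates are shared between lines by the labels. Both pairings were tried as blocks, beside quantile normalization, median centring, no filter and a 60th percentile filter, eBayes without trend or robust, pseudocounts of 1 and 64, other choices of probe set and leaving out each array. The code was tested on simulated data.

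The 8 genes, the lists, and the rule for other named genes (called list genes, up to 3 with the smallest p per list, and the 3 nearest profiles of a called gene) were chosen with earlier results of these data known. Tat, Hpd, Hgd, Gstz1 and Phox2a were named in addition for their place in a route or a count. Promoters came from RefSeq (GRCm38.p6), which had windows for all 8 genes. Figures were drawn with matplotlib 3.10.9.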

Additional observations from a re-analysis of the deposited data

How the results depend on the processing

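Under 16 alternative settings for genes, the Fah difference stayed between -2.81 and -2.36 and its limma adjusted p between 0.00869 and 0.153. Of the 8 genes, 1 was called as reported, 0 with the date as a replicate block and 2 (Fah and Maoa) with the RNA integrity pair as a replicate block. Of their probe sets 0 were called by limma as reported, with 4 at an unadjusted p below 0.05, both Gch1 probe sets among them. Of 14 alternatives, the 60th percentile filter called 1, a pseudocount of 64 called 1 and the block on the integrity pair called 2. That block gave 884 called genes over the table, 341 lower and 543 higher in the non-pigmented line, against 422, 167 and 255 as reported. Leaving out 1 array at a time gave 234 to 772 called genes, 100 to 267 lower and 127 to 505 higher. It gave 0 to 1 of the 8 genes and 1 to 2 of the list genes, the other being Sult1a1 (adjusted p of 0.0104 by limma without non-pigmented replicate 1). Cbr2 was called in all 16 settings. Median centring moved the median difference of all genes to 0.18, against -0.07 as reported.

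Signs turned only in genes that were not called. Leaving out 1 array at a time, the difference ran from -0.40 to 0.72 for Qdpr, from -0.28 to 1.82 for Ddc, from -0.59 to 0.075 for Nos1, from -0.066 to 1.21 for Aldh2, from -1.06 to 0.059 for Fahd2a, from -0.24 to 0.43 for Zfand6 and from -0.65 to 0.59 for 2610206C17Rik. The last also turned with quantile normalization (0.15) and median centring (0.22). The cause of these changes was not tested. Where a line kept 1 array, it was assumed to vary like the other line. Signals near the filter, as for Ddc and Pcbd1, could not be separated from background here.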

Other observations

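In 3 genes of these routes, picked out after their values were seen, a single array, non-pigmented replicate 2, stood above the others. Sult1a1 had a signal of 1377 there, against 43.2 on the other non-pigmented array and 16.2 and 33.8 on the pigmented ones. Ddc had 241, against 43.7 on the other non-pigmented array and 48.2 and 66.5 on the pigmented ones, in 1 of its 2 probe sets. Aldh2 had 9931 in the brightest of its 5 probe sets, against 4083 on the other non-pigmented array and 4445 and 4114 on the pigmented ones. The control 3′ to 5′ ratios of this array were 20.2 for Gapdh and 9.96 for Actb, against 16.8 and 12.2 on pigmented replicate 2, so the 2 controls order these arrays differently. The part of RNA integrity in these values was not tested.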
